A study of Mus musculus with 6 samples.

Results

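Msln, Upk3b, Upk1b, Lrrn4, Wt1, Gpm6a and Muc16 are 7 genes used as markers of mesothelial cells, and they are described here in 2 kinds of mouse pancreatic tumour and in normal pancreas. They were taken by gene symbol from a list of mesothelial markers and make up 7 of the 27179 genes counted. RNA was sequenced in 3 groups of 2 libraries each. H7 tumours grew from PANC02-H7 cells, a metastatic subline of a chemically induced mouse pancreatic carcinoma. UNKC tumours grew from UN-KC-6141 cells, a line from a pancreatic tumour of a genetically engineered mouse. Both lines were placed by surgery in the pancreas of C57BL/6 mice, and the tumours were removed on day 20 without any treatment of the mice. The third group was whole pancreas of C57BL/6 mice. Each tumour group stands for 1 transplanted cell line, and a whole tumour holds host tissue beside the injected cells. The labels give no age or sex and do not say whether the libraries of a group came from separate mice, so p-values measure only the spread between these libraries, which may be technical.

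The mesothelium is the flat cell layer that covers the abdominal organs, the pancreas included, and lines the body cavity. Its cells keep an epithelial keratin skeleton while they derive from mesoderm, and they carry surface glycoproteins such as mesothelin. Mesothelin is also known as a surface antigen of pancreatic and ovarian carcinoma cells, and in a whole tumour these sources cannot be told apart. In bulk RNA, fewer cells of a type and less RNA per cell cannot be told apart.

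Of these genes, Msln was far higher in both kinds of tumour than in normal pancreas, at 45.5 to 87.6 CPM, a read count scaled to library size, in the 4 tumour libraries and at 0.926 and 2.86 CPM in the 2 normal libraries. The other genes did not go with it. In H7 tumours Upk3b, Upk1b, Lrrn4, Wt1 and Gpm6a were below both normal pancreas and UNKC tumours. In UNKC tumours Upk3b and Upk1b were called lower than in normal pancreas, but that direction depended on how the libraries were scaled.

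The scaling bears on each value against normal pancreas. In the tumour libraries 20.1% to 27.8% of reads were ribosomal, while in normal pancreas the share was 86.4% and 85.0%. Leaving out these reads and Lars2, a gene with 5.67% of the reads in normal replicate 1, the tumour libraries held 24051559 to 31905946 reads and the normal ones 962665 and 1216411. CPM values are therefore per effective library size. The scaling factors (trimmed mean of M values, TMM) ran from 2.07 to 2.23 for tumour libraries and were 0.179 and 0.256 for the normal ones. The acinar markers, which define normal pancreas, summed to 3.83 to 35.7 CPM in the tumours and to 9634 and 9367 CPM in normal pancreas. A single read was worth 0.0111 to 0.0145 CPM in a tumour library and 0.463 and 0.477 CPM in the normal libraries. Each member other than Msln had between 2 and 24 reads in a normal library. Tests are edgeR quasi-likelihood tests on all 6 libraries, with Benjamini-Hochberg adjustment over the 16306 genes tested. A call means an adjusted p below 0.05, and log2 fold changes carry the standard error (SE) of the fit. An exact permutation test of 2 against 2 libraries cannot go below a two-sided p of 0.333.

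The promoters of 3 members are shown, and these are the members whose window held the hexamer described below. They are the 250 bases before the RefSeq start, in build GRCm38.p6, written 5′ to 3′ on the strand of the gene. A promoter entry was matched for 4 of the 7 genes, these 3 and Muc16. Upk1b and Wt1, which were also low in H7 tumours, had no matched entry. Capitals mark a GGAATG hexamer or its other strand CATTCC, the core of the site bound by TEAD factors, which act in the Hippo pathway. This search was chosen after the sequences were seen. Lrrn4 starts here inside its annotated span, and Gpm6a is given at the first of its 2 starts.
Upk3b, chr5:136038246-136038495, plus strand: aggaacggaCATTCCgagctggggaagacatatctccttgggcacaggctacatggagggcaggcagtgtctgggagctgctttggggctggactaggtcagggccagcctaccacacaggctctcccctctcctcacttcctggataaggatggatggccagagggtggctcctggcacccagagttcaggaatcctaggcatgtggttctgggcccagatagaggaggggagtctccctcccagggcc
Lrrn4, chr2:132880863-132881112, minus strand: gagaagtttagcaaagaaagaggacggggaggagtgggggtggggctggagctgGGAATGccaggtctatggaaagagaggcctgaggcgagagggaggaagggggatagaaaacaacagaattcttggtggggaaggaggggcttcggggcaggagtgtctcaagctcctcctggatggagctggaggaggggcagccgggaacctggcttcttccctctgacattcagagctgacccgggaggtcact
Gpm6a, chr8:54779184-54779433, plus strand: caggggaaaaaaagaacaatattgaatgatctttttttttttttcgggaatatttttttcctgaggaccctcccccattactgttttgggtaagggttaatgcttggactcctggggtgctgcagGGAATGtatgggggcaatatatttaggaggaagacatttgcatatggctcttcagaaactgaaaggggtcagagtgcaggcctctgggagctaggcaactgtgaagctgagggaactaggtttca

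The hexamer began 241 bases before the start in Upk3b, 196 bases before it in Lrrn4 and 125 bases before it in Gpm6a. It was absent from the window of the other Gpm6a start and from that of Muc16. Of 32851 promoter windows of the same length, 12.6% held it on either strand. The letters GTGGGAG or CTCCCAC, the core of a site bound by WT1 itself, were in none of these 5 windows and in 8.25% of all windows. A match describes the letters of a window and is not evidence of a bound site.

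Msln encodes mesothelin, a lipid-anchored surface glycoprotein of mesothelial cells that binds the mucin MUC16. The gene (ID 56047) lies at chr17:25748613-25754378. It had 3139 and 4367 reads in H7 tumours, 6763 and 7478 reads in UNKC tumours, and 2 and 6 reads in normal pancreas. Scaled, these were 45.5 and 56.1 CPM in H7, 74.9 and 87.6 CPM in UNKC and 0.926 and 2.86 CPM in normal pancreas. All 4 tumour libraries stood above both normal ones, and both UNKC libraries above both H7 ones. The rise over normal pancreas was 4.75 ± 0.37 on the log2 scale in H7 tumours (SE, n = 2 each, edgeR adjusted p = 0.000287) and 5.43 ± 0.37 in UNKC tumours (edgeR adjusted p = 0.000208). Since the normal libraries together held only 4 read pairs of Msln, counting error alone gives a 95% interval of 3.41 to 6.64 for H7 and 4.07 to 7.31 for UNKC. Without normal replicate 2 the log2 fold change was 5.81 in H7 and 6.48 in UNKC. Between the tumours, Msln was 0.68 ± 0.25 lower in H7 than in UNKC on the log2 scale without passing the test, with a log2 fold change of -0.68 (edgeR adjusted p = 0.121). This difference was called with DESeq2 (adjusted p = 0.00651), in a fit of the 4 tumour libraries alone (edgeR adjusted p = 0.0287) and without normal replicate 1 or 2 (edgeR adjusted p = 0.0330 and 0.0332).

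**Figure D1:**
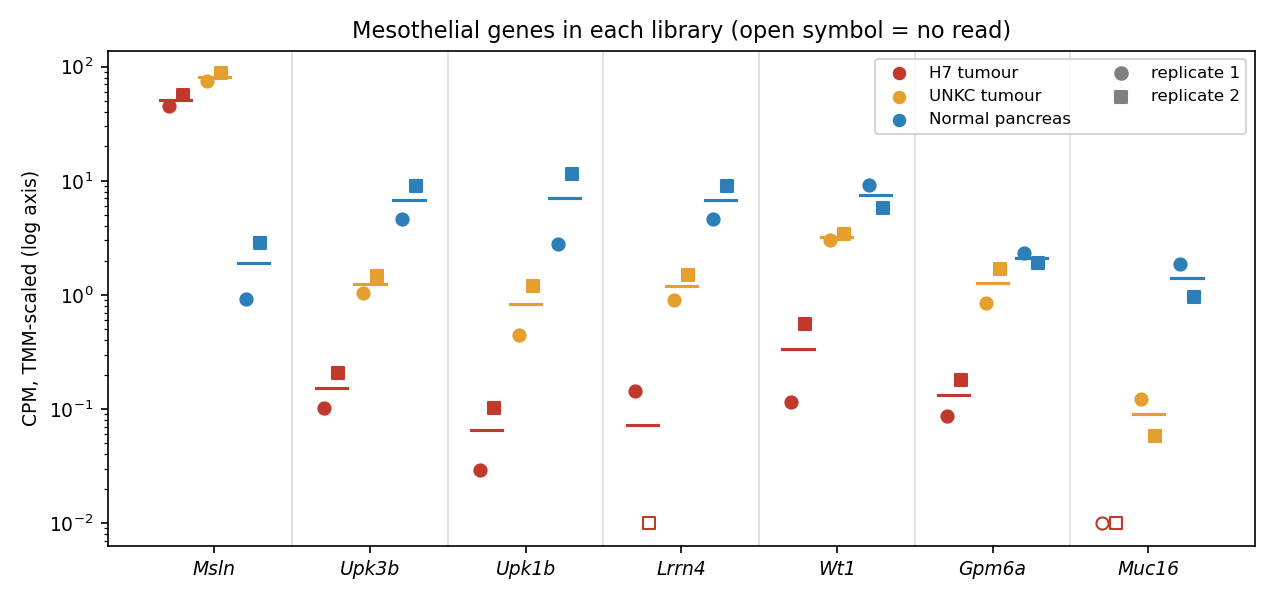
Level of each of the 7 genes (horizontal axis) in TMM-scaled CPM on a log axis, with 1 symbol per library, circles for replicate 1 and squares for replicate 2, short lines at the group means, and an open symbol at the foot where a library had no read. Msln sits at 45.5 to 87.6 CPM in the tumours and at 0.926 and 2.86 CPM in normal pancreas, while the other 6 genes sit highest in normal pancreas at this scaling.

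Muc16 encodes a very large membrane mucin, the source of the CA125 antigen and the known partner of mesothelin. The gene (ID 73732) spans chr9:18495445-18674821, or 179377 bases, but its counted exons held only 1032 bases, so the counts cover a small stretch of it. It had no read in either H7 library, 11 and 5 reads in UNKC tumours, and 4 and 2 reads in normal pancreas. Muc16 did not pass the filter on low counts and was not tested. Against a floor of 3 read pairs over the 2 H7 libraries, it was at least 2.23-fold lower in H7 than in UNKC tumours. In UNKC tumours it was at 0.122 and 0.0586 CPM, against 1.85 and 0.954 CPM in normal pancreas, and the counting interval of the log2 fold change ran from -6.01 to -1.40. The authors' deposited table gives a log2 fold change of -1.74 for UNKC over normal pancreas, with an adjusted p of 0.0398.

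Upk3b and Upk1b belong to the uroplakins, membrane proteins first known from the plaques of the bladder lining. Upk3b is one of the most specific mesothelial markers, and Upk1b is a tetraspanin. Upk3b (ID 100647, chr5:136038496-136044993) had 7 and 16 reads in H7 tumours, 94 and 125 in UNKC tumours, and 10 and 19 in normal pancreas. That is 0.101 and 0.205 CPM in H7, 1.04 and 1.46 CPM in UNKC, and 4.63 and 9.07 CPM in normal pancreas. The 3 groups did not overlap, with H7 lowest and normal pancreas highest. Upk3b had a log2 fold change of -5.44 ± 0.62 in H7 over normal pancreas (edgeR adjusted p = 0.000967) and of -2.99 ± 0.51 in H7 over UNKC (edgeR adjusted p = 0.0135). In UNKC tumours over normal pancreas it was -2.45 ± 0.53 (edgeR adjusted p = 0.0110). That call was lost without UNKC replicate 1 (edgeR adjusted p = 0.0601) or without normal replicate 2 (log2 fold change -1.85, edgeR adjusted p = 0.0718). Without normal replicate 2 the value of H7 over normal pancreas was -4.85, and without H7 replicate 2 that of H7 over UNKC was -3.59.

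Upk1b (ID 22268, chr16:38773182-38800203) had 2 and 8 reads in H7 tumours, 40 and 103 in UNKC tumours and 6 and 24 in normal pancreas. Scaled, it was at 0.0290 and 0.103 CPM in H7, 0.443 and 1.21 CPM in UNKC and 2.78 and 11.5 CPM in normal pancreas. The groups did not overlap, but the libraries within UNKC and within normal pancreas were far apart. Upk1b had a log2 fold change of -6.66 ± 1.07 in H7 over normal pancreas (edgeR adjusted p = 0.00331), of -3.10 ± 0.86 in UNKC over normal pancreas (edgeR adjusted p = 0.0266) and of -3.56 ± 0.93 in H7 over UNKC (edgeR adjusted p = 0.0493). The call in UNKC ended without normal replicate 2, where the log2 fold change was -1.72 (edgeR adjusted p = 0.309), and without UNKC replicate 1 or H7 replicate 1 (edgeR adjusted p = 0.0884 and 0.0516). It also ended with the authors' fragment counts (edgeR adjusted p = 0.0513). The call between the tumours ended with total counts, without a filter and with a stricter one (edgeR adjusted p = 0.0749, 0.0544 and 0.0531). With each library left out in turn, Upk1b ranged from -7.79 (without H7 replicate 2) to -5.29 (without normal replicate 2) in H7 over normal pancreas. In H7 over UNKC it ranged from -4.71 (without H7 replicate 2) to -2.67 (without UNKC replicate 2). The other uroplakins, Upk2, Upk3a and Upk1a, are parts of the bladder plaque. Upk2 had no read in any library, Upk3a had 1 read in normal replicate 1, and Upk1a had 2 to 7 reads in the tumour libraries and none in normal pancreas.

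Lrrn4 and Gpm6a encode membrane proteins that are better known from neurons. Lrrn4 is a leucine-rich repeat protein, and Gpm6a is a tetraspan protein of the proteolipid family. Lrrn4 (ID 320974, chr2:132866686-132894010) had 10 and 0 reads in H7 tumours, 81 and 127 in UNKC tumours and 10 and 19 in normal pancreas. In CPM it was at 0.145 and 0 in H7, 0.897 and 1.49 in UNKC, and 4.63 and 9.07 in normal pancreas. The groups did not overlap. It had a log2 fold change of -6.58 ± 1.07 in H7 over normal pancreas (edgeR adjusted p = 0.00354) and of -4.06 ± 0.92 in H7 over UNKC (edgeR adjusted p = 0.0322). In UNKC over normal pancreas it was -2.52 ± 0.84, just outside the threshold (edgeR adjusted p = 0.0508), and 9 of the alternative settings called it lower. Without H7 replicate 2 Lrrn4 was at -5.51 in H7 over normal pancreas and at -3.02 in H7 over UNKC, and without H7 replicate 1 no read was left on the H7 side. The span of Lrrn4 overlaps the end of Crls1, which had 737 to 1102 reads per tumour library and 12 and 13 reads per normal library. These reads are not scaled to library size, and the part of Crls1 in the values of Lrrn4 was not tested. Whether the libraries keep strand is not said in the labels, so reads from that overlap could not be assigned by strand.

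Gpm6a (ID 234267, chr8:54779434-55060878) had 6 and 14 reads in H7 tumours, 76 and 144 in UNKC tumours and 5 and 4 in normal pancreas. It was at 0.0869 and 0.180 CPM in H7, 0.842 and 1.69 CPM in UNKC and 2.31 and 1.91 CPM in normal pancreas. H7 stood below both other groups. UNKC and normal pancreas lay close to each other at this scaling. The log2 fold change was -3.95 ± 0.93 in H7 over normal pancreas (edgeR adjusted p = 0.0139), and this call was lost without normal replicate 1 (edgeR adjusted p = 0.0675). It was -3.20 ± 0.57 in H7 over UNKC (edgeR adjusted p = 0.0147). In UNKC over normal pancreas it was -0.74 ± 0.75 without a call (edgeR adjusted p = 0.449), while under total-count scaling it was called higher at 2.64 (edgeR adjusted p = 0.00904). Without H7 replicate 2 it was at -4.54 in H7 over normal pancreas and at -3.82 in H7 over UNKC, and without UNKC replicate 2 the second was -2.62.

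Nerve markers were measured beside these neuronal genes. Ncam1, a neural adhesion molecule, was at 1.32 and 6.08 CPM in H7, 104 and 119 CPM in UNKC and 2.78 and 2.86 CPM in normal pancreas. Between the tumours Ncam1, Tubb3 and Uchl1 were lower in H7, as Lrrn4 and Gpm6a were, and S100b was higher. Sox10, a factor that defines Schwann cells, had no read in normal pancreas. The part of nerve in the values of Lrrn4 and Gpm6a was not tested.

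Wt1 is the transcription factor of the set, a zinc finger protein of the mesothelium, the kidney podocyte and the gonad. Wt1 (ID 22431, chr2:105126529-105173614) had 8 and 43 reads in H7 tumours, 273 and 289 in UNKC tumours and 20 and 12 in normal pancreas. In CPM it was at 0.116 and 0.552 in H7, 3.02 and 3.38 in UNKC and 9.26 and 5.73 in normal pancreas. The H7 libraries were far apart here, and both stood below every other library. Wt1 had a log2 fold change of -4.46 ± 0.76 in H7 over normal pancreas (edgeR adjusted p = 0.00424) and of -3.23 ± 0.63 in H7 over UNKC (edgeR adjusted p = 0.0202). In UNKC over normal pancreas it was -1.23 ± 0.67 without a call (edgeR adjusted p = 0.182). It was called lower with the authors' fragment counts and in a fit of the 4 libraries alone (edgeR adjusted p = 0.0201 and 0.0429), and it was called higher under total-count scaling, at 2.18 (edgeR adjusted p = 0.0211). Wt1 in H7 over normal pancreas was at -3.69 without H7 replicate 1 and at -5.96 without H7 replicate 2, and in H7 over UNKC it was at -2.51 and -4.76.

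Markers of other sites of Wt1 were measured beside it. Nphs1, which encodes nephrin, was at 0.0434 and 0.0257 CPM in H7 tumours, 0.0111 and 0.0703 CPM in UNKC tumours, and 215 and 193 CPM in normal pancreas. Podxl, a sialomucin of podocytes that vessels also carry, was at 14.1 and 15.8 CPM in H7, 63.0 and 66.3 CPM in UNKC and 15.7 and 18.6 CPM in normal pancreas. Against normal pancreas Nphs1 and Gata4, a factor of the gonad, were called lower in both tumours and Podxl higher in UNKC, and under total-count scaling Nphs1 stayed lower while Gata4 did not. The part of podocyte or gonadal tissue in the values of Wt1 was not tested.

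In H7 tumours against normal pancreas, 1 of the 6 tested members was called higher (Msln) and 5 were called lower (Upk3b, Upk1b, Lrrn4, Wt1 and Gpm6a). Of all genes tested, 29.6% were called higher and 21.9% lower in that comparison. The median log2 fold change was -4.95 over the members and 0.34 over all genes tested. In UNKC tumours against normal pancreas, 1 member was called higher (Msln), 2 were called lower (Upk3b and Upk1b) and 3 had no call. Of all genes, 29.1% were called higher and 19.3% lower there, and the medians were -1.84 over the members and 0.42 over all genes. A single member called higher among 6 is no larger a share than the background in either comparison. Muc16, the member with the fewest reads, is not part of these counts. Both comparisons use the same 2 normal libraries.

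**Figure D2:**
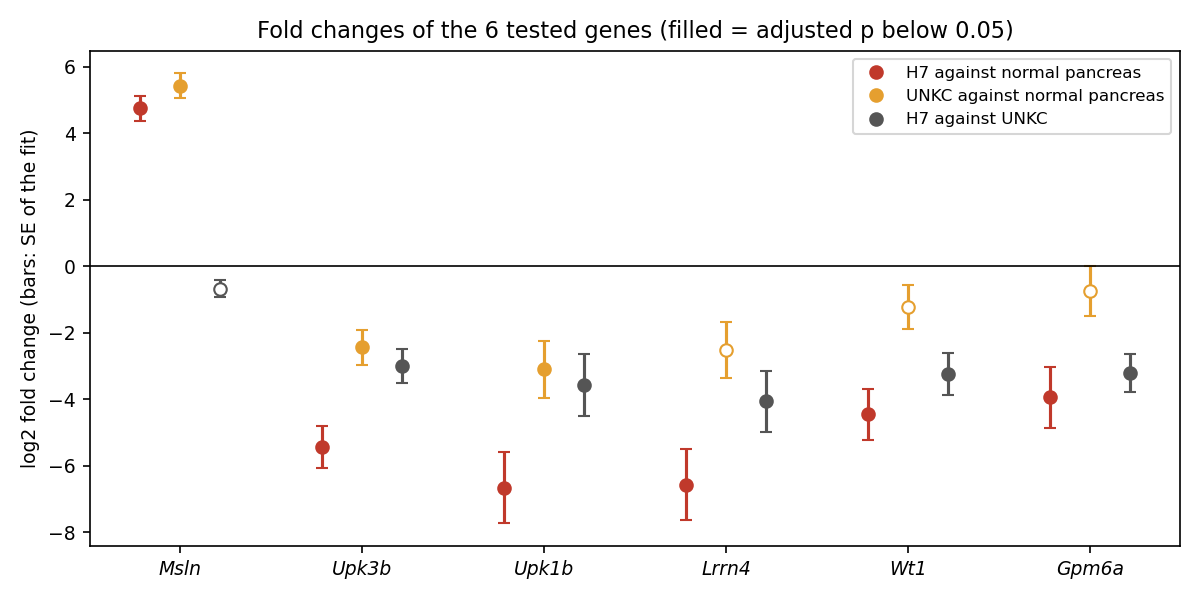
Log2 fold changes (vertical axis) of the 6 tested genes in the 3 comparisons, with bars for the standard error of the edgeR fit. Msln is at 4.75 and 5.43 against normal pancreas, while the other genes lie between -6.66 and -3.95 in H7 and between -3.10 and -0.74 in UNKC, the UNKC values turning positive when libraries are scaled by total counts.

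The direction of the UNKC values against normal pancreas rested on the scaling. With libraries scaled by total counts, ribosomal RNA included, the median gene moved to a log2 fold change of 3.61 in H7 and 3.77 in UNKC over normal pancreas. Of the 16306 genes tested, 12710 were then called higher in H7 and 13500 in UNKC. In that scaling Upk3b, Upk1b and Lrrn4 were at 0.88, 0.18 and 0.80 in UNKC over normal pancreas without a call, and Wt1 and Gpm6a were called higher at 2.18 and 2.64 (edgeR adjusted p = 0.0211 and 0.00904). All of these lay below the shifted median gene. In H7 tumours the 5 genes stayed below normal pancreas under total counts too, though Wt1 and Gpm6a had no call (edgeR adjusted p = 0.190 and 0.473). Msln stayed higher in both tumours under every scaling run, with a log2 fold change of 8.02 in H7 and 8.77 in UNKC under total counts.

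The same contrast stands within the authors' deposited tables, whose TPM values, which are scaled to gene length and library total, count ribosomal RNA in the total. For Upk3b they list 2.35 and 3.35 TPM in UNKC tumours and 0.699 and 1.61 TPM in normal pancreas, so both UNKC values are the higher ones. Yet the log2 fold change for Upk3b in the authors' deposited table, from DESeq2 with its own scaling, is -2.13. For Wt1 the authors' deposited table lists 4.68 and 5.25 TPM in UNKC and 1.15 and 0.925 TPM in normal pancreas, with a log2 fold change of -1.35. For H7 over normal pancreas the authors' deposited table gives log2 fold changes of 4.38 for Msln, -5.12 for Upk3b, -6.27 for Upk1b, -6.15 for Lrrn4, -4.22 for Wt1 and -3.24 for Gpm6a. Muc16 is not listed in that table.

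**Figure D3:**
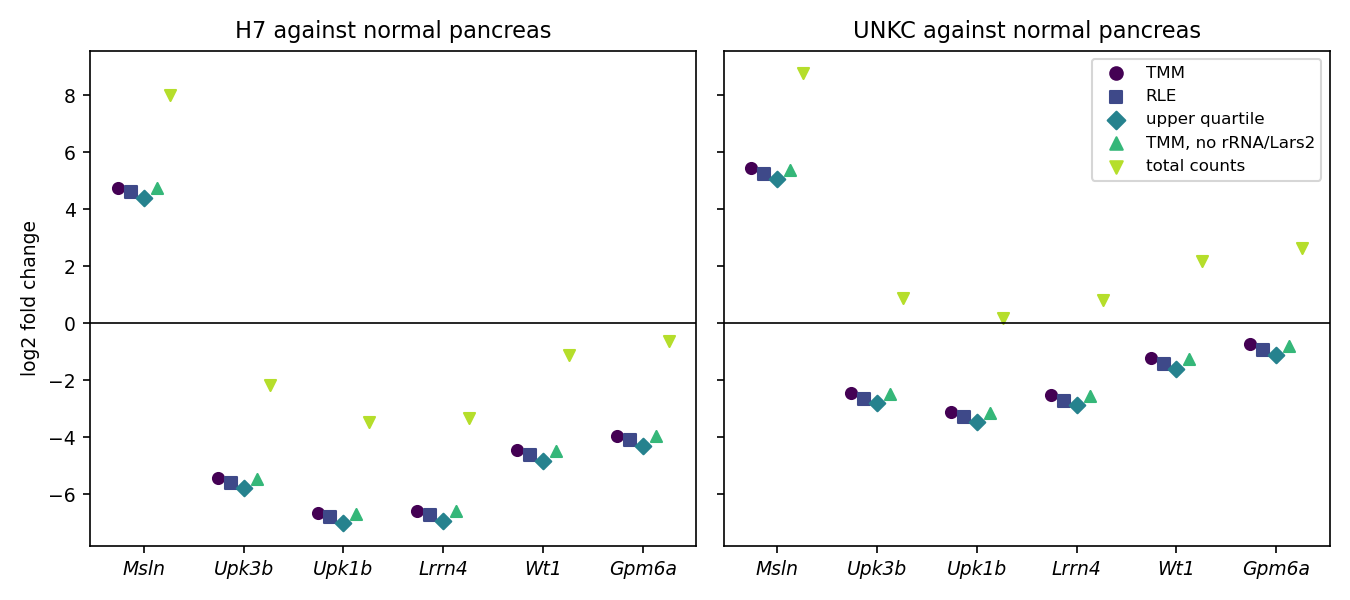
Log2 fold changes over normal pancreas (vertical axes) of the 6 tested genes under 5 ways of scaling the libraries, 1 symbol each, for H7 (left) and UNKC (right) tumours. Total-count scaling lifts every gene, so that Upk3b reaches 0.88, Wt1 2.18 and Gpm6a 2.64 in UNKC, while in H7 the 5 genes other than Msln stay below 0.

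In the comparison of the tumours with each other, both groups were sequenced to a like depth. In H7 against UNKC, none of the 6 tested members was called higher, 5 were called lower and Msln had no call, beside 7.06% of all genes called higher and 11.1% called lower. The median log2 fold change was -3.22 over the members and -0.02 over all genes. The 5 genes lay between -4.06 for Lrrn4 and -2.99 for Upk3b, and both H7 libraries stood below both UNKC libraries for each of them. Such a separation cannot pass a permutation test with 2 libraries a group, and its share over all genes is not given here. Their direction held under every scaling run. Their calls were fragile to single libraries. Without H7 replicate 1 none of the 5 was called (edgeR adjusted p = 0.0504 to 0.290), without H7 replicate 2 only Wt1 was, without UNKC replicate 1 only Upk3b and Gpm6a were, and without UNKC replicate 2 Upk3b, Wt1 and Gpm6a were. In a fit of the 4 tumour libraries alone Lrrn4 had no call (edgeR adjusted p = 0.0519).

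Read per length of counted exons, the make-up of the set differed between tumours and normal pancreas. Msln gave 99.2% and 98.6% of the members' reads per kilobase in H7 tumours, 93.8% and 92.3% in UNKC tumours, and 3.96% and 7.44% in normal pancreas. It ranked first of the 7 in all 4 tumour libraries, and in the normal ones it had rank 7 and rank 5. In UNKC tumours Wt1 and Upk3b followed Msln, with 2.59% and 2.44% for Wt1 and 1.35% and 1.60% for Upk3b. In normal pancreas the first place went to Wt1 in replicate 1, at 27.1%, and to Upk1b in replicate 2, at 35.6%. Upk3b was second in both, at 20.6% and 24.5%, so the order around it was not stable between the normal libraries. Without Msln, the other 6 genes together held 33 and 81 reads in H7, 575 and 793 in UNKC, and 55 and 80 in normal pancreas. That is 0.478 and 1.04 CPM in H7, 6.37 and 9.29 CPM in UNKC and 25.5 and 38.2 CPM in normal pancreas.

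**Figure D4:**
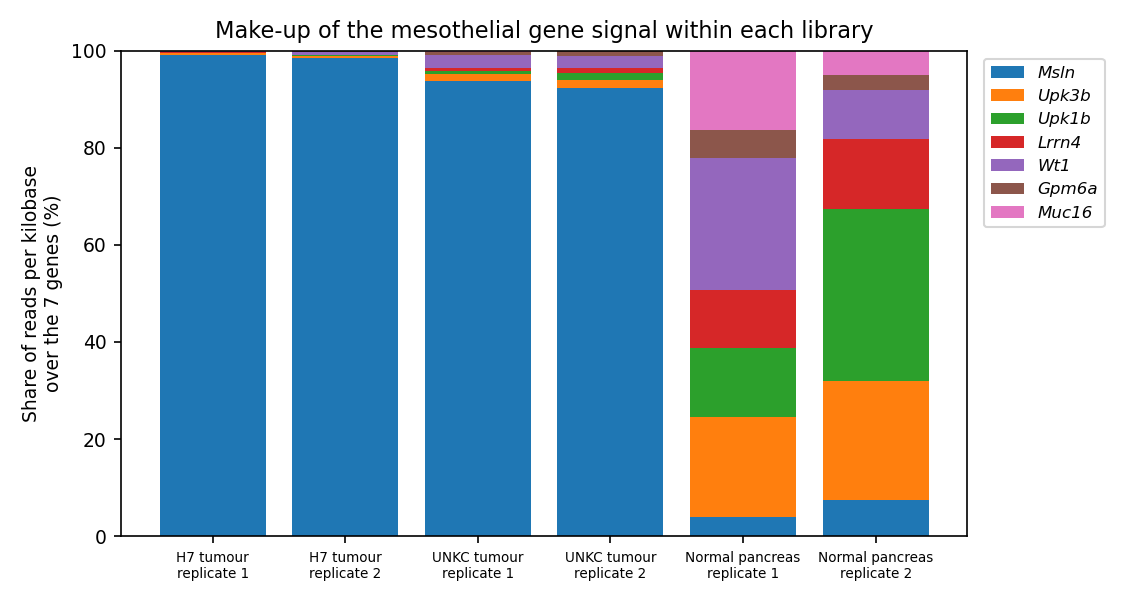
Share of the reads per kilobase of counted exons over the 7 genes (vertical axis, %) that each gene gave in each library (horizontal axis). Msln fills 92.3% to 99.2% of each tumour column and 3.96% and 7.44% of the normal columns, where Upk3b, Upk1b, Wt1 and Lrrn4 take most of the rest.

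The replicates of a tumour group also differed in a marker of other tissue. The 5 skeletal muscle markers counted held 86 and 35751 reads in H7 tumours, 82 and 144914 reads in UNKC tumours, and 15 and 5 reads in normal pancreas. Replicate 2 was the higher one for 5 of the 7 members in H7 tumours, with Lrrn4 higher in replicate 1 and Muc16 at 0 in both. It was the higher one for 6 of 7 in UNKC tumours, all but Muc16. With the muscle-bearing replicate 2 of both tumours left out, a choice made after seeing the data that leaves 1 library a group and no test, the log2 fold changes of H7 over UNKC were -3.32 for Upk3b, -3.80 for Upk1b, -2.61 for Lrrn4, -4.67 for Wt1, -3.23 for Gpm6a and -0.72 for Msln.

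Another 12 genes known from mesothelium were examined beside the set, 11 of which were tested, and at the TMM scaling they did not move in 1 direction. Some are also made by fibroblasts or epithelium. In H7 against normal pancreas 3 were called higher and 4 lower, beside 29.6% and 21.9% of all genes, with a list median of -0.41. Under total-count scaling 6 were called higher and none lower, where 12710 of all 16306 genes tested were called higher. Anxa8, an annexin and the most abundant of the list, was at 148 and 144 CPM in H7 tumours, 224 and 209 CPM in UNKC tumours, and 8.33 and 6.68 CPM in normal pancreas. It was higher in both tumours than in normal pancreas (log2 fold change 4.28 ± 0.16 in H7 and 4.85 ± 0.17 in UNKC, edgeR adjusted p = 0.000105 and 0.000104), as Msln was. Bnc1, a zinc finger factor of mesothelium and squamous epithelium, was at 15.2 and 14.9 CPM in H7 tumours, 0.565 and 1.05 CPM in UNKC tumours, and 0.926 and 3.82 CPM in normal pancreas. Both H7 libraries stood above the other 4 for Bnc1, while Wt1 was lower in H7 than in UNKC (Bnc1 log2 fold change 4.21 ± 0.45 in H7 over UNKC, edgeR adjusted p = 0.00317).

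Efemp1, which encodes the matrix protein fibulin-3, was at 62.0 and 64.1 CPM in H7 tumours, 12.8 and 9.61 CPM in UNKC tumours and 22.2 and 12.4 CPM in normal pancreas. It was higher in H7 than in normal pancreas by a log2 fold change of 1.86 and than in UNKC by 2.49 (edgeR adjusted p = 0.00304 and 0.00350). Cldn15, a tight junction claudin, was higher in H7 than in UNKC tumours by 3.94 on the log2 scale (edgeR adjusted p = 0.0130). Aldh1a2, the enzyme that makes retinoic acid in embryonic and adult mesothelium, was low in H7 tumours like Wt1, at 0.724 and 2.34 CPM in H7, 12.8 and 10.2 CPM in UNKC and 9.26 and 12.9 CPM in normal pancreas. It had a log2 fold change of -2.90 in H7 over UNKC (edgeR adjusted p = 0.0170) and of -2.85 over normal pancreas (edgeR adjusted p = 0.00978), the second turning to 0.43 without a call under total-count scaling. Rspo1, Nkain4 and Prg4, named after their values were seen, were the other 3 called lower in H7 than in normal pancreas. Rspo1 and Nkain4 were at -4.59 and -5.33 and Prg4 at -3.58, and none of the 3 was called under total-count scaling.

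In UNKC against normal pancreas 2 of the 11 were called higher and 1 lower, beside 29.1% and 19.3% of all genes. The list median was -0.63, and under total-count scaling 7 were called higher and none lower. In that scaling 13500 of all 16306 genes tested were called higher. Beside Anxa8 the higher one was Pdpn, which encodes podoplanin, a surface sialoglycoprotein of mesothelium and lymphatic vessels. It was at 1.33 and 2.18 CPM in H7, 7.35 and 11.6 CPM in UNKC and 3.70 and 0.954 CPM in normal pancreas (log2 fold change 2.01 ± 0.62 in UNKC over normal pancreas, edgeR adjusted p = 0.0376). Pdpn had no call with DESeq2 size factors or upper-quartile factors (edgeR adjusted p = 0.0585 and 0.0744). The lower one was Rspo1, at -3.50 (edgeR adjusted p = 0.00567), which also had no call under total-count scaling. In H7 against UNKC 3 were called higher (Bnc1, Cldn15 and Efemp1) and 4 lower (Aldh1a2, Pdpn, Anxa8 and Nkain4), beside 7.06% and 11.1% of all genes. The list median was -1.09, and Anxa8 had no call there under total-count scaling. Calb2, which encodes the mesothelial marker calretinin, had no read in H7 tumours or normal pancreas and 6 and 4 reads in UNKC tumours, and it was not tested.

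**Figure D5:**
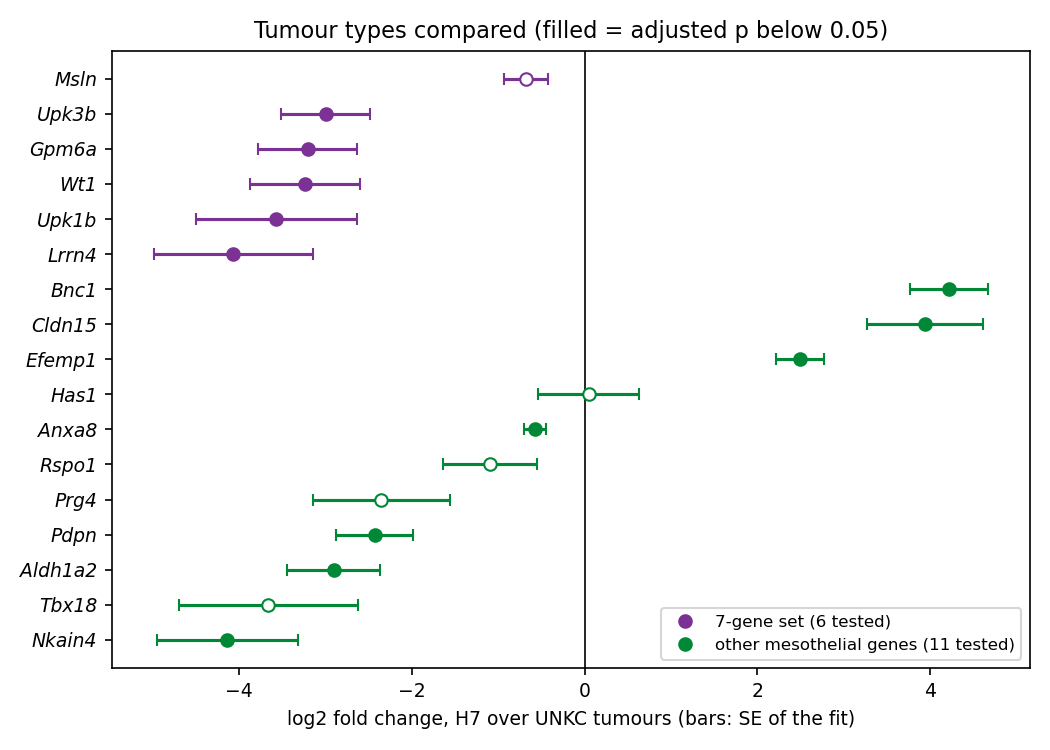
Log2 fold changes of H7 over UNKC tumours (horizontal axis, bars for the standard error of the edgeR fit) of the 6 tested genes of the set and of 11 other mesothelial genes. All 6 genes of the set lie left of 0, from -4.06 to -0.68, while Bnc1, Cldn15 and Efemp1 of the other list lie at 4.21, 3.94 and 2.49.

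Relatives of the members differed among themselves. Gpm6b, the paralogue of Gpm6a, was at 3.43 and 4.02 CPM in H7 tumours, 57.7 and 53.4 CPM in UNKC tumours and 6.94 and 1.91 CPM in normal pancreas. It was higher in UNKC than in normal pancreas by a log2 fold change of 3.64 (edgeR adjusted p = 0.00120) and lower in H7 than in UNKC, at -3.90 (edgeR adjusted p = 0.00225). Lrrn3, a relative of Lrrn4, was highest in H7, at 11.7 and 7.20 CPM, against 0.277 and 0.539 CPM in UNKC and 2.78 and 2.86 CPM in normal pancreas. Its log2 fold change of H7 over UNKC was 4.53 (edgeR adjusted p = 0.00235), against -4.06 for Lrrn4. Lrrn1 was at 0.145 and 1.64 CPM in H7, 1.26 and 2.90 CPM in UNKC and 18.5 and 30.5 CPM in normal pancreas, with log2 fold changes over normal pancreas of -4.76 in H7 and -3.56 in UNKC (edgeR adjusted p = 0.0120 and 0.0295). Muc1, a membrane mucin of pancreatic ducts, was at 8.15 and 4.18 CPM in H7, 10.3 and 3.84 CPM in UNKC and 53.2 and 34.8 CPM in normal pancreas. Its log2 fold changes over normal pancreas were -2.84 in H7 and -2.64 in UNKC (edgeR adjusted p = 0.00828 and 0.0111), turning to 0.49 and 0.77 without a call under total-count scaling, and neither Lrrn1 value was called there. Of the 12 relatives 9 were tested. In H7 against normal pancreas Lrrn3 and Lrrn4cl were called higher and Lrrn1 and Muc1 lower. In UNKC against normal pancreas Gpm6b and Lrrn4cl were called higher and Lrrn1, Lrrn3 and Muc1 lower, though under total-count scaling none of the relatives was called lower in either tumour. Lrrn4cl had no read in normal pancreas, and against a floor of 3 read pairs over those libraries H7 tumours were at least 1.54-fold higher and UNKC tumours at least 1.79-fold higher.

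Mesothelium shares keratins with simple epithelium, and keratins were higher in UNKC tumours than in normal pancreas, as Msln was. Krt18 was at 127 and 136 CPM in H7 tumours, 380 and 316 CPM in UNKC tumours and 29.2 and 41.5 CPM in normal pancreas. Krt7 was at 11.8 and 7.98 CPM in H7, 77.4 and 54.8 CPM in UNKC and 9.26 and 6.68 CPM in normal pancreas, so H7 lay well below UNKC and, at this scaling, close to normal pancreas. Under total-count scaling Krt7 was called higher in H7 than in normal pancreas, at 3.63, as were all 6 genes of the list in both tumours. Most genes were called higher there, 12710 of 16306 tested in H7 and 13500 in UNKC. Of the 6 genes of that list (Krt7, Krt8, Krt18, Krt19, Ezr and Slpi), 4 were called higher in H7 than in normal pancreas (all but Krt7 and Krt19) and 5 in UNKC (all but Slpi), and none was called lower. In H7 against UNKC 4 were called lower (Krt7, Krt18, Krt19 and Ezr). Their summed level was 479 and 467 CPM in H7, 1244 and 1095 CPM in UNKC and 159 and 126 CPM in normal pancreas.

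Markers of adipocytes and fibroblasts were counted too. The 6 adipocyte markers summed to 7.76 and 7.95 CPM in H7 tumours, 1.31 and 18.6 CPM in UNKC tumours, and 87.5 and 198 CPM in normal pancreas. The H7 sums were nearly all Plin4, which was at 7.75 and 7.77 CPM in H7 and at 0.587 and 9.12 CPM in UNKC. The other 5 did not exceed 0.128 CPM in an H7 library and ran from 0.0111 to 7.27 CPM in UNKC libraries. The adipocyte hormone gene Adipoq had no read in either H7 library, 4 and 100 reads in UNKC tumours and 36 and 82 reads in normal pancreas. Of the 6, 5 were called lower in H7 than in normal pancreas (all but Plin4), beside 21.9% of all genes tested. In UNKC 4 were called lower (Adipoq, Cidec, Lep and Plin1, with 2 called under total-count scaling), beside 19.3% of all genes. None of the 6 was called between the tumours. The second normal library held the higher sum of adipocyte markers. Of the 7 members, 4 were higher in CPM in that library (Msln, Upk3b, Upk1b and Lrrn4) and 3 in the first (Wt1, Gpm6a and Muc16). The 7 fibroblast markers summed to 619 and 1077 CPM in H7, 1201 and 2340 CPM in UNKC and 208 and 305 CPM in normal pancreas. Against normal pancreas 4 were called higher in H7 (Col1a1, Dcn, Lum and Pdgfra), beside 29.6% of all genes tested. In UNKC 3 were (Col1a1, Col1a2 and Lum), beside 29.1%. None was called lower, but 1 was in UNKC with DESeq2 size factors, upper-quartile factors or ribosomal RNA and Lars2 left out. Between the tumours 2 were called higher in H7 and none lower, beside 7.06% and 11.1% of all genes. Col1a1 was at 154 and 380 CPM in H7 and 533 and 1146 CPM in UNKC. Pdgfra was at 165 and 102 CPM in H7 and 23.3 and 40.8 CPM in UNKC. The part of these cell types in the members' values was not tested.

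The 4 genes whose pattern over the 6 libraries was nearest to that of Msln, by the root mean square difference of centred log2 CPM among 11035 genes, were S100a4, Emp1, Cdk1 and Gadd45a. Their differences were 0.43, 0.46, 0.48 and 0.48. S100a4, a calcium-binding protein, averaged 105 CPM in H7, 145 CPM in UNKC and 4.24 CPM in normal pancreas. The 4 nearest to Upk3b were Cep112, Tmc7, Tshz3 and Fabp4, with differences of 0.28, 0.31, 0.35 and 0.35. Fabp4, the fatty acid binding protein of adipocytes, averaged 1.77 CPM in H7, 7.54 CPM in UNKC and 62.6 CPM in normal pancreas. These lists describe likeness over 6 libraries in 3 groups and carry no test.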

How the data were processed

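Total RNA of H7 tumours, UNKC tumours and normal pancreas was sequenced, with 2 libraries in each group. Per the submitters' processing notes, reads were handled with STAR, featureCounts and DESeq2 1.18.1 on build mm10. The deposited counts of each sample are unnormalised whole numbers of reads for each gene ID. The authors' 2 tables of tumour against normal pancreas hold fragment counts, TPM values, log2 fold changes and p-values with adjusted p-values. They list genes with at least 10 counts. The count per sample is close to 2 per fragment of those tables, so both mates of a pair were counted, and a count of 2 can be a single molecule. Library totals were 33332516 and 36307030 (H7), 40507546 and 38728423 (UNKC) and 12077320 and 8204225 (normal) reads. Replicates were not copies of one another (chi-square per degree of freedom 25.8, 49.2 and 224).

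Counts were analysed with edgeR 4.0.16 in R 4.3.3 (filterByExpr, TMM, quasi-likelihood test on all 6 libraries, group as the only term), tested first on simulated data. DESeq2 1.42.0 was an alternative. Tables and figures were made with Python 3.11.15, pandas 2.3.3 and matplotlib 3.10.9. Floors are 3 read pairs over a group (0.0408 CPM in H7, 0.0342 in UNKC, 1.41 in normal pancreas). Counting intervals are exact binomial at 95%, on pairs, and cover counting error only. Gene names came from the authors' tables for 16286 IDs and from RefSeq (GRCm38.p6) for 9355, and 1538 stayed unnamed. Coordinates and promoters are those of RefSeq in GRCm38.p6.

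The members and lists were chosen with earlier results of these data known. All 7 members are named. From other lists, genes past the threshold that reached 5 CPM in a group compared are named, up to 4 a list, and the gene with the highest CPM. Cldn15, Gata4, Calb2, Sox10, Adipoq, the other uroplakins, Crls1 and genes named behind counts of 5 or fewer were added after their values were seen. Some list genes are not reported here. In all, 18 alternatives were planned and 1 was added after seeing the data. Nothing in the labels ties equal replicate numbers together, and the numbers served as names.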

Additional observations from a re-analysis of the deposited data

Results flagged for a closer look

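For 5 members the change from normal pancreas differed between the tumours, as the direct edgeR test of H7 against UNKC shows. Since both changes share the normal libraries, their difference equals the log2 fold change of H7 over UNKC. It was -2.99 for Upk3b, -3.56 for Upk1b, -4.06 for Lrrn4, -3.23 for Wt1 and -3.20 for Gpm6a. In each of the 5, both H7 libraries lay below both UNKC libraries, which describes these genes only, as the share over all genes is not given here. Without H7 replicate 1 none of these 5 differences was called, as given above. With 2 libraries a group, no library was tested as an outlier.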

How the results depend on the processing

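The rises of Msln over normal pancreas kept their direction and call in both tumours under the 18 other settings tested. Of the single-gene values of those settings 262 stayed on their side of the threshold, 31 lost a call, 15 gained one and 5 changed sign.

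The number of members lower in H7 than in normal pancreas (5) became 3 with total counts and 1 with the authors' fragment counts, where only 2 members passed the filter, and ranged from 4 to 6 with single libraries left out. The number lower in UNKC than in normal pancreas (2) became 0 with total counts, 1 against a fold of 2, and 4 in a fit of only the 4 libraries compared and with ribosomal RNA and Lars2 left out, and ranged from 0 to 4 with single libraries left out. It was 0 without UNKC replicate 1 and without normal replicate 2. The number higher in UNKC (1) became 3 with total counts, where 13500 of all 16306 genes tested were called higher. With total counts 524 of all 16306 genes were called lower in H7 and 312 in UNKC, against 3572 and 3150 at the main scaling. The number lower in H7 than in UNKC (5) became 2 against a fold of 2 and ranged from 0 to 6 with single libraries left out. Against normal pancreas, the UNKC values that changed sign did so with total counts and were 0.88 for Upk3b, 0.18 for Upk1b, 0.80 for Lrrn4, 2.18 for Wt1 and 2.64 for Gpm6a. The cause was not tested.

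With a replicate block the counts were 1 higher and 5 lower in H7 and 1 higher and 2 lower in UNKC against normal pancreas, and 0 higher and 5 lower in H7 against UNKC. Deviations of samples with the same number correlated at -0.01, -0.02 and 0.53 in these comparisons, and the labels do not say that numbers pair samples. Lrrn4 in UNKC over normal pancreas was called in 9 of the alternatives. Lrrn4 ranged from -8.93 to -3.02 in H7 over UNKC with single libraries left out, since H7 replicate 2 held no read, and the lowest of these is a fitted value with no read on the H7 side. Where 1 library of a group was left, it was assumed to vary like the other groups. Depth limits every member in normal pancreas, with 2 to 24 reads each per normal library.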
